A study of Mus musculus with 4 samples.

Results

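Sp6 occupancy was examined at the genes of 6 receptors for bone morphogenetic proteins (BMPs) and activins, out of 21631 protein-coding mouse genes. The genes were Bmpr1a, Bmpr1b, Bmpr2, Acvr1, Acvr2a and Acvr2b, taken by exact name from the deposited tables that pair Sp6 intervals with genes. Sp6 (epiprofin) belongs to the SP/KLF family of zinc-finger transcription factors, and mice without it form abnormal teeth. It was mapped by ChIP-seq, which sequences the DNA fragments that an antibody to the factor brings down. The groups were an Sp6 library of dental epithelium, an Sp6 library of dental mesenchyme, and an input library (chromatin without antibody) of each tissue. All 4 came from C57BL/6 mouse molars at postnatal day 1, with 30 molars given for the preparation, and the Sp6 libraries used an antibody made in the submitters' laboratory. The labels name no mutation and no treatment. Each group is 1 library of pooled tissue, so values carry no replicate error and the tissues were not tested against each other. ChIP-seq measures no RNA, so the tissue labels were not checked against marker genes. In bulk tissue, occupancy in fewer cells and weaker occupancy in each cell cannot be told apart.

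BMPs and activins signal through pairs of membrane kinases. A type II receptor (Bmpr2, Acvr2a and Acvr2b here) binds ligand together with a type I receptor (Bmpr1a, Bmpr1b and Acvr1) and phosphorylates it, and the type I receptor then phosphorylates SMAD proteins that enter the nucleus. BMP and activin signals pass between dental epithelium and mesenchyme during tooth development, and loss of Bmpr1a from the dental epithelium of mice arrests it. Acvr2a and Acvr2b bind both activins and BMPs, whereas Bmpr2 mainly binds BMPs.

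Sp6 intervals, the regions that the authors called as enriched for fragments, were listed for 1 of the 6 receptor genes in epithelium and for 4 of 6 in mesenchyme. The epithelium gene was Acvr2a. The mesenchyme genes were Bmpr1a, Bmpr2, Acvr1 and Acvr2a. Bmpr1b and Acvr2b had no called interval in either tissue. Over all protein-coding genes, 8.92% had an interval in epithelium and 21.4% in mesenchyme. Longer genes were listed more often, and the receptor genes are long, from 40.6 to 332 kb in RefSeq. Among the 5455 protein-coding genes within that range of lengths, 18.4% had an interval in epithelium and 39.4% in mesenchyme. The epithelium count is near the share for genes of such length. The mesenchyme count is higher than that share, in a set where 1 gene makes up 16.7%. Intervals in both tissues were listed for 1 receptor gene, beside 17.5% of genes in that range of lengths and 8.24% of all. Intervals in mesenchyme but not epithelium were listed for 3, beside 21.9% in that range and 13.1% of all. The mesenchyme list is the longer one. Among as many of its highest intervals as epithelium had, 2 receptor genes were listed, Acvr1 and Bmpr1a, against 8.57% of all protein-coding genes. That share was not matched on gene length, so it is too low a background for genes this long.

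The receptor genes held 1 interval in epithelium, of 2381 with a listed gene, and 7 in mesenchyme, of 7211. Read totals are unknown, and no source used here states a scaling between libraries. Strength is given as the peak value in the deposited tables, which is how dense the fragments were in an interval's highest bin. Its median was 27 over the listed epithelium intervals (interquartile range 21 to 38) and 34 over those of mesenchyme (25 to 51). No receptor interval overlapped an interval of either input, which had 17 intervals in epithelium and 24 in mesenchyme. Such overlap was rare for any gene: 10 of the 2381 listed epithelium intervals and 10 of the 7211 of mesenchyme had it.

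**Figure D1:**
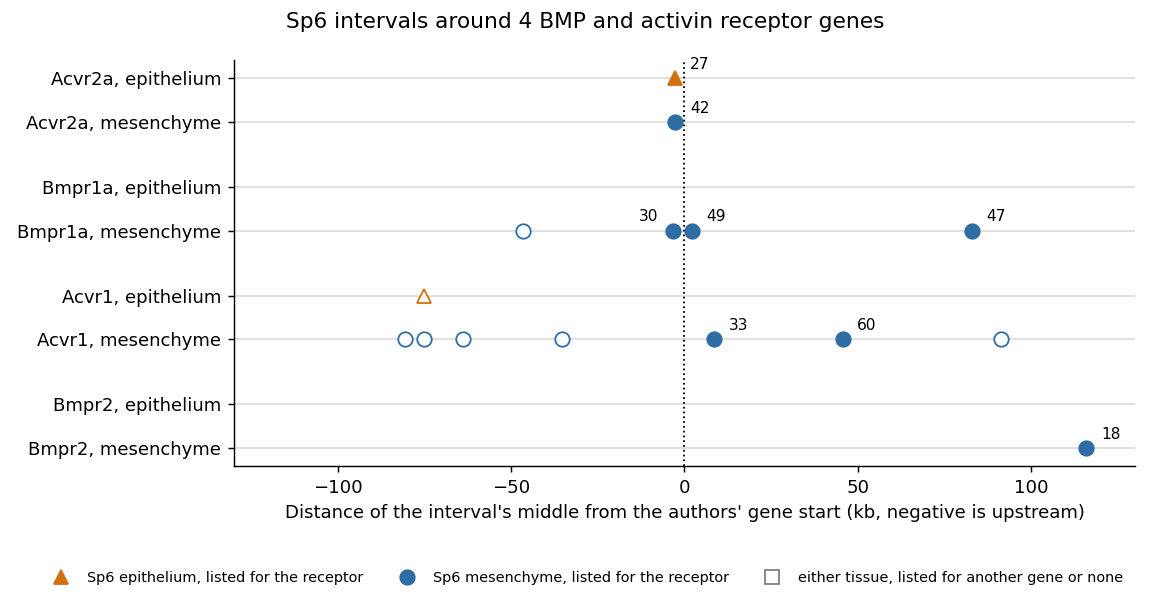
Sp6 intervals within 130 kb of the start of 4 receptor genes, by distance in kb along the gene (horizontal axis, negative is upstream), with 1 row per gene and tissue. Filled symbols are intervals listed for the receptor, with the peak value beside them, and open symbols are listed for another gene or for none; Acvr2a alone has a filled symbol in epithelium.

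Acvr2a, an activin type II receptor gene on chromosome 2, was the receptor gene with an interval in both tissues. Its epithelium interval (chr2:48666797-48667309, mm9) was 513 bp long and had a peak value of 27 and an average value over its bins of 11.5. Its mesenchyme interval (chr2:48666739-48667421) was 683 bp long and had a peak value of 42 and an average value of 15.5. The deposited peak centre was the same in both libraries, 2605 bp upstream of the gene start. Centres follow bins about 32 bp wide, so this means the same bin and not the same base. Over the 2083 pairs of listed intervals that overlapped between tissues, the centres lay a median of 32 bp apart and coincided in 29.7%.

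The Acvr2a interval stood near the middle of the epithelium list, where 46.6% of listed intervals had a lower peak value, and above the middle of the mesenchyme list, where 64.2% did. The log2 ratio of epithelium to mesenchyme peak values was -0.64 at Acvr2a. Over all overlapping pairs the median ratio was -0.97 (interquartile range -1.35 to -0.58), so the Acvr2a ratio lay inside that range and was higher than 71.5% of them. These ratios describe deposited values and do not measure a difference in binding. Acvr2a was the sole gene listed for the interval in either tissue.

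The mesenchyme intervals of these genes within 5 kb of a start, 3 in all, did not reach the start itself. They were those of Acvr2a and the 2 near the start of Bmpr1a, and the bases before the starts of both genes are shown for that reason, together with those of their paralogs Acvr2b and Bmpr1b, which had no interval. The sequences are the 250 bases before the RefSeq gene start (assembly GRCm38.p6, gene strand, 5′ to 3′). Capitals mark the GC box, GGGCGG on either strand (CCGCCC on the opposite one), the element to which SP factors are known to bind. The stretches are chr2:48813859-48814108 (plus strand) for Acvr2a, chr9:119401928-119402177 (plus strand) for Acvr2b, chr14:34502547-34502796 (minus strand) for Bmpr1a and chr3:141982265-141982514 (minus strand) for the first of 3 listed Bmpr1b starts. These are not mm9 positions, and the Sp6 intervals were not placed on them.
Acvr2a promoter: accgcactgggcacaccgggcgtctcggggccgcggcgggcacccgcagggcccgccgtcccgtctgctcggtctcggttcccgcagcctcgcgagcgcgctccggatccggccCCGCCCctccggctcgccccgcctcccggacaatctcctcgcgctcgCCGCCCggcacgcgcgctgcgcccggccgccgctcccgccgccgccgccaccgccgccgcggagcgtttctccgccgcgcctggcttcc
Acvr2b promoter: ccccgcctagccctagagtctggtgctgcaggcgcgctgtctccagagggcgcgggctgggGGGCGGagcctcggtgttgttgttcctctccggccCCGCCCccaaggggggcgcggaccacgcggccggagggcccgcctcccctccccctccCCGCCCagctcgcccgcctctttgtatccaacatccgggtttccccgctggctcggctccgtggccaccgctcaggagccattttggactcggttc
Bmpr1a promoter: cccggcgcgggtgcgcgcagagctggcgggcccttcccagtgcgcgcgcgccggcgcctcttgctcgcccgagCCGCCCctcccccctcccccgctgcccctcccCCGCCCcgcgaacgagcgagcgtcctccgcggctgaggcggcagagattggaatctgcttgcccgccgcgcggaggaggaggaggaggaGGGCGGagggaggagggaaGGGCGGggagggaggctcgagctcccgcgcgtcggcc
Bmpr1b promoter: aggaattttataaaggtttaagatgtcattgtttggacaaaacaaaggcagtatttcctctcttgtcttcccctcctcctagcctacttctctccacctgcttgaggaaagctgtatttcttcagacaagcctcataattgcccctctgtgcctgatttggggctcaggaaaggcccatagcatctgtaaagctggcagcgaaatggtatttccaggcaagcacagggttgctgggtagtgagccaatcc

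The Acvr2a sequence holds 2 GC boxes, that of Acvr2b 3 and that of Bmpr1a 4. None of the 3 Bmpr1b sequences holds one. The promoters not shown had 1 GC box for Bmpr2 and 6 for Acvr1. Whether the RefSeq start of Acvr1 is the start that the authors used was not analysed here. Thus 5 of the 8 receptor promoter sequences, from 5 of the 6 genes, hold a GC box, against 43.1% of 21045 promoters of protein-coding genes. The G and C content of these 5 was 64.0 to 85.6%, against a median of 55.6% over all promoters and 46.8 to 56.4% in the 3 Bmpr1b sequences. The CACC box, CACCC on either strand, to which KLF factors are known to bind, was found once each in Acvr2a, Bmpr1a and Acvr1, and 2 times in the second Bmpr1b sequence. It was not found in those of Acvr2b and Bmpr2. Of all promoters, 54.4% hold it. Matches of the motifs may overlap. Letters matching a motif describe the sequence and do not show binding: Acvr2b has GC boxes and had no interval, and the intervals of Acvr2a and Bmpr1a ended more than 1 kb from the authors' starts.

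Bmpr1a, the BMP type I receptor gene on chromosome 14, held 3 intervals in mesenchyme and 0 in epithelium. Of protein-coding genes within the receptor genes' range of lengths, 7.63% had 3 or more in mesenchyme, and of all, 3.18%. An interval in the gene (chr14:35313154-35313864, mm9) had its peak centre 2244 bp past the start, a peak value of 49 and an average value of 16.4, and the authors counted 2 peaks in it. A weaker interval upstream (chr14:35318691-35319265) had its centre 3244 bp before the start and a peak value of 30. These intervals stood 5.49 kb apart, on both sides of the start. Among all protein-coding genes, 83 (0.384%) had mesenchyme intervals on both sides of the start within 5 kb. That share was not matched on gene length, and the count was chosen after the values were seen.

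The third Bmpr1a interval lay deep in the gene, 83.0 kb from the start (chr14:35232520-35232921). It was the shortest of the 7 mesenchyme intervals, at 402 bp, with a peak value of 47 and the highest average value among them, 21.6. The upstream interval was also listed for 9230112D13Rik, downstream of that gene at 17011 bp from its start, so the table does not assign it to Bmpr1a alone. In epithelium the nearest interval of any kind lay 768 kb from the Bmpr1a start. At 46.5 kb upstream of Bmpr1a, a mesenchyme interval with a peak value of 26 was listed for Ldb3.

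Acvr1, a BMP type I receptor gene on chromosome 2, held 2 intervals in mesenchyme and 0 in epithelium. The stronger, 45.8 kb from the start and in the gene (chr2:58322476-58323191, mm9), had a peak value of 60 and an average value of 21.2. It was the highest peak value among the receptor genes, and 81.7% of listed mesenchyme intervals were lower. The other lay 8.57 kb past the start (chr2:58359702-58360280) with a peak value of 33, close to the library's median of 34. No interval of Acvr1 lay within 5 kb of the start used by the authors.

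Further intervals near Acvr1 carried no gene in the tables, which begin 10 kb upstream of a start. Upstream of the Acvr1 start, mesenchyme had 4 unlisted intervals, at 35.4, 63.9, 75.2 and 80.6 kb. Epithelium had 1, at 75.2 kb (chr2:58443531-58444060), which overlapped the mesenchyme interval at that place (chr2:58443566-58444070). Another unlisted mesenchyme interval lay 91.5 kb past the start. Peak values are not given for unlisted intervals. Which gene model the authors used for Acvr1 is not stated, and RefSeq gives the gene a length of 120 kb, so whether the unlisted intervals lie inside a longer form of Acvr1 was not analysed here.

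Bmpr2, the BMP type II receptor gene on chromosome 1, had 1 weak interval in mesenchyme and 0 in epithelium. It lay past the end of the gene, 116 kb from the start (chr1:59937249-59937870, mm9), with a peak value of 18 and an average value of 11.7. Only 4.80% of listed mesenchyme intervals had a lower peak value. The nearest epithelium interval lay 88.6 kb from it.

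Bmpr1b, the third BMP type I receptor gene, and Acvr2b, the other activin type II receptor gene, had no called interval in either tissue, and none of their RefSeq synonyms appeared in the tables. Bmpr1b is the longest of the 6 genes, at 332 kb, and Acvr2b the shortest, at 40.6 kb. No interval in either tissue was the case for 59.7% of protein-coding genes within the receptor genes' range of lengths, and for 78.0% of all. Both genes next to Bmpr1b had intervals in both tissues. Unc5c, a netrin receptor gene, had an interval 17.1 kb from its start, with a value of 40 in epithelium and 64 in mesenchyme. Pdlim5, which encodes a PDZ and LIM domain protein, had 2 epithelium intervals, the stronger with 59, and 4 mesenchyme intervals, the strongest with 61.

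Between the Unc5c interval and the first Pdlim5 interval, a span of 754 kb on chromosome 3 in which Bmpr1b lies by RefSeq gene order, neither library had an interval. The genes next to Acvr2b, Xylb and Exog, had none in either tissue. The nearest listed genes were Acaa1a, with a mesenchyme peak value of 18 at 0.172 kb upstream of its start, and Scn10a, with 44 at 51.0 kb in the gene. Neither library had an interval in the 301 kb between them. Both spans end at the nearest listed intervals, so the only ones that could have appeared in them were listed for no gene or for a gene outside RefSeq's protein-coding set.

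**Figure D2:**
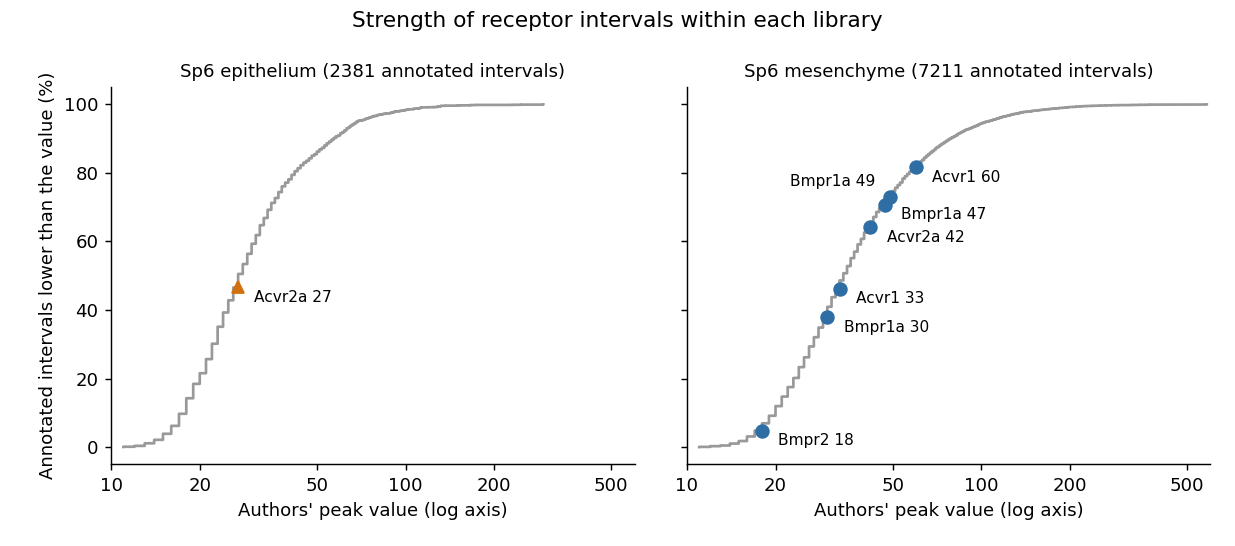
Share of annotated intervals (those with a listed gene) with a lower peak value, in percent, against the authors' peak value on a log axis, for the Sp6 libraries of epithelium (left) and mesenchyme (right). The grey line is the whole library and the symbols are receptor intervals, which run from 18 at Bmpr2 to 60 at Acvr1 in mesenchyme, all below 79, where the strongest 10% of that library begin.

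Within mesenchyme the order of peak values was Acvr1 (60 and 33), Bmpr1a (49, 47 and 30), Acvr2a (42) and Bmpr2 (18). With 1 library, the spread that would separate neighbours in this order is not known. The median of the 7 intervals was 42, against 34 for all listed mesenchyme intervals, and 4 of the 7 were above 34. None was among the strongest 10% of the library, which began at 79. Their median length was 622 bp, against 632 bp for the library, and their median average value was 15.5, against 14.0.

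Of the 7 mesenchyme intervals, 1 overlapped an epithelium interval and 6 did not. Over all listed mesenchyme intervals, 28.7% overlapped one, and the share depended on strength. It was 3.19% (Wilson 95% interval 2.13 to 4.73%) in the weakest 10% by peak value and 89.2% (86.7 to 91.2%) in the strongest. Wilson intervals here cover counting error only. Receptor intervals were set beside all mesenchyme intervals whose peak value differed by at most 2. For the strongest, Acvr1 with 60, 117 of 215 such intervals (54.4%, 47.7 to 60.9%) had an epithelium counterpart and the Acvr1 interval had none.

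At the strength of the Bmpr1a intervals with 49 and 47, the shares were 37.6% (32.8 to 42.8%) and 35.2% (30.5 to 40.1%), and neither interval had a counterpart. At the strength of Acvr2a it was 28.0% (24.5 to 31.9%), and Acvr2a had one. At the Bmpr2 strength, 3.81% (2.65 to 5.45%) had one. At the strengths of 6 of the 7 intervals, fewer than 50% of mesenchyme intervals had a counterpart, so a missing one does not show that Sp6 was absent there. Of all genes listed in mesenchyme, 38.6% were also listed in epithelium, beside 1 of 4 receptor genes. Counted from epithelium, 87.4% of listed intervals overlapped a mesenchyme interval. Among the 408 epithelium intervals whose peak value differed from that of Acvr2a by at most 2, 365 did (89.5%, 86.1 to 92.1%). The overlap at Acvr2a was thus the usual case for an epithelium interval.

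**Figure D3:**
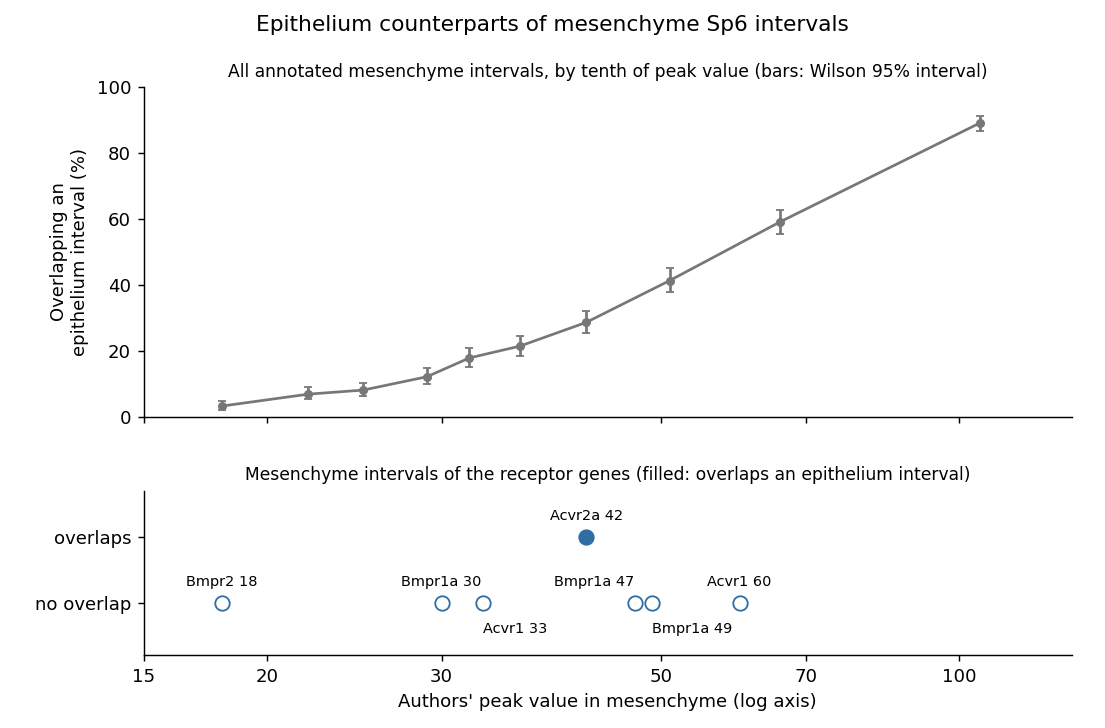
Above, the share of annotated mesenchyme intervals that overlapped an epithelium interval, in percent, for 10 equal groups by peak value (log axis; points at each group's median, bars are Wilson 95% intervals). Below, the 7 mesenchyme intervals of the receptor genes at their peak values, filled where an epithelium interval overlapped; the filled one is Acvr2a, and the share above runs from 3.19 to 89.2%.

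By position, the 1 epithelium interval lay upstream of a gene. In mesenchyme 4 of the 7 lay in a gene (all of them in the type I receptor genes Bmpr1a and Acvr1), 2 upstream and 1 downstream. Over all listed mesenchyme intervals 76.0% lay in a gene. Within 5 kb of a start there was 1 receptor gene in epithelium (Acvr2a) and 2 in mesenchyme (Acvr2a and Bmpr1a), against 2.02% and 6.76% of protein-coding genes. No receptor interval lay on a CpG island in either tissue. Over all listed intervals, 4.2% in epithelium and 8.45% in mesenchyme were on one. Among those within 5 kb of a start, which include intervals on the start itself, the shares were 18.5% and 33.5%. Whether an interval lay in an exon or an intron was not analysed here.

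The rest of the pathway was described in the same way with 7 lists of 64 genes. Of these, 13 (20.3%) had an interval in epithelium and 28 (43.8%) in mesenchyme. The shares over all protein-coding genes were 8.92% and 21.4%. Among those in the receptor genes' range of lengths they were 18.4% and 39.4%. The lists themselves were not matched on gene length. The median peak value of a list's intervals ran from 19 to 36 in epithelium, over the 5 lists with any, and from 24.5 to 40.5 in mesenchyme, beside 27 and 42 for the BMP and activin receptor genes. No list was tested, and the lists were drawn up with earlier results on these data known. Among the 6 other receptors of the TGF-beta family, 2 had an interval in epithelium and 4 in mesenchyme. Tgfbr2, the TGF-beta type II receptor gene, had peak values of 37 in epithelium and 84 in mesenchyme, and Tgfbr1, its type I partner, had 23 in epithelium and 45 in mesenchyme, 6.62 and 6.59 kb inside the gene. Acvr1b, an activin type I receptor gene, had 1 interval in mesenchyme, at 23, and none in epithelium. Thus the highest mesenchyme value among BMP and activin receptor genes, 60, lay between those of Tgfbr1 and Tgfbr2.

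Of 8 co-receptor genes, 2 had an interval in epithelium and 3 in mesenchyme. Bambi, a pseudoreceptor that blocks signalling, had the highest peak values of these lists in mesenchyme, with 64 in epithelium and 141 in mesenchyme, 1.20 kb inside the gene. Tgfbr3, which encodes betaglycan, had 41 in epithelium and 71 in mesenchyme at different places in the gene. Each of these Tgfbr3 intervals overlapped an interval of the other tissue. Rgmb, a BMP co-receptor, had 14 in mesenchyme alone.

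Among 20 ligand genes, 4 had an interval in epithelium and 9 in mesenchyme. Bmp4 had the highest peak value of this list, 64 in epithelium and 128 in mesenchyme. Bmp8a had 47 in epithelium and 103 in mesenchyme, and its paralog Bmp8b had 27 in epithelium and 59 in mesenchyme. How the authors handled reads that match both copies is not stated. The 11 genes for extracellular antagonists had 0 in epithelium and 1 in mesenchyme, which was Fstl3, a follistatin-like activin antagonist. Its peak value was 30, downstream of the gene at 9.91 kb from the start.

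Downstream of the receptors, 4 of 8 SMAD genes had intervals in each tissue, and they were the same 4, Smad2, Smad3, Smad6 and Smad7. Smad2 had 53 in epithelium and 101 in mesenchyme, both downstream of the gene at 72.2 kb from its start. The highest values of Smad6, an inhibitory SMAD, were 38 in epithelium and 96 in mesenchyme. Those of Smad3 were 28 in epithelium and 49 in mesenchyme. Each pair was at different places in the gene. The Smad6 intervals of both tissues and the Smad3 interval of epithelium nevertheless overlapped an interval of the other tissue. The Smad3 interval of mesenchyme did not. Of 7 genes for receptor-associated and turnover proteins, 1 had an interval in epithelium and 4 in mesenchyme. Smurf2, a ubiquitin ligase for receptors and SMADs, had 19 in epithelium and 41 in mesenchyme at places that did not overlap. Smurf1 had 36 and Xiap 34, in mesenchyme alone, and the Xiap interval lay downstream of the gene at 19.2 kb from its start. The BMP target genes Id1, Id2 and Id3 had intervals in mesenchyme alone, with peak values of 32, 17 and 33, and Id4 had none. The intervals with these values lay downstream of the genes, at 1.33, 3.56 and 1.80 kb from their starts.

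**Figure D4:**
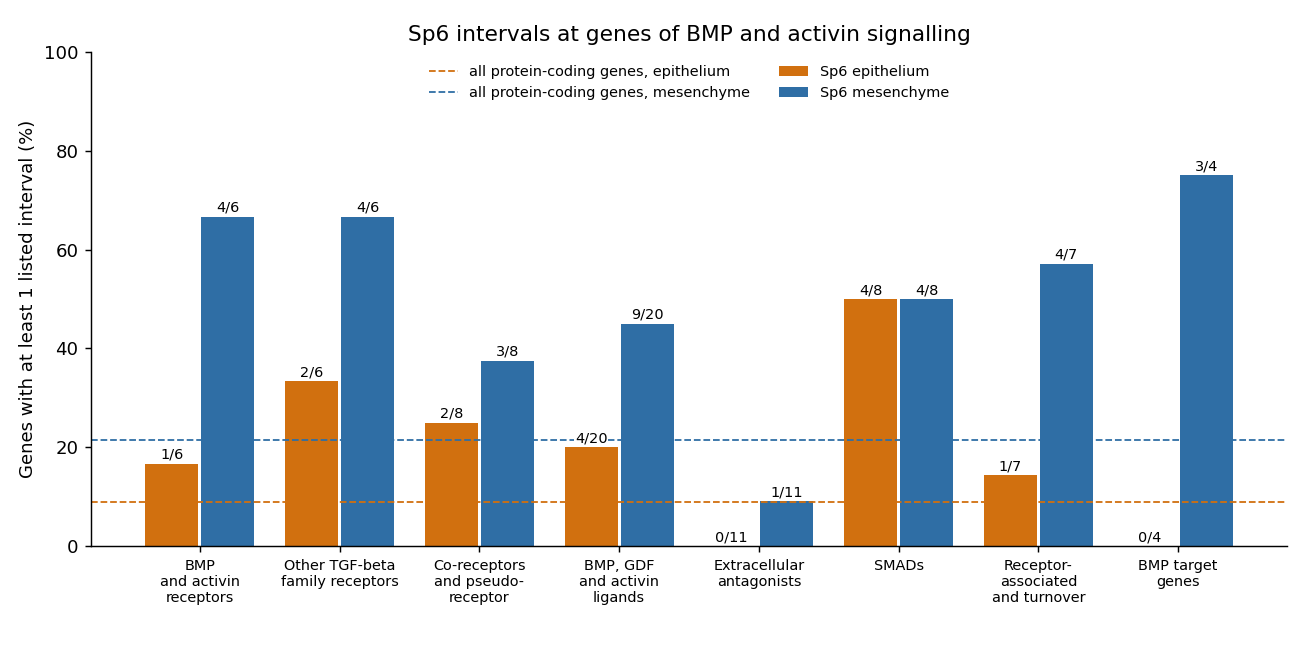
Share of genes with at least 1 listed Sp6 interval, in percent, for the 6 BMP and activin receptor genes and 7 other lists of the pathway, in epithelium (left bar) and mesenchyme (right bar), with the count above each bar. Dashed lines are the shares over all protein-coding genes, 8.92% in epithelium and 21.4% in mesenchyme, not matched on gene length; the receptor genes stand at 1 of 6 in epithelium and 4 of 6 in mesenchyme.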

How the data were processed

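ChIP-seq of Sp6 and input chromatin was compared in dental epithelium and dental mesenchyme, 1 library per group, 4 samples in all. Groups were taken from the sample titles. The submitters' processing notes name the genome build mm9 and MACS 1.3.7.1; the aligner, calling thresholds, scaling and any use of the inputs were not given in the sources used. Per the file headers, the authors deposited intervals called in each library and, for the Sp6 libraries, tables with positions, a peak value and an average value (signal, the fragment density over bins about 32 bp wide), and signed distances to gene starts from 10 kb upstream. Read totals are unknown, so the precision of a value is unknown. Interval starts were counted from 1.

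Members were found by exact gene name. Overlap meant at least 1 bp. Names were matched to symbols and synonyms of 21631 RefSeq protein-coding genes (GRCm38.p6, chromosomes 1 to 19 and X), used for names, lengths, gene order and the promoter sequences alone. Promoters of all 6 members were matched. The overlap step was checked on planted intervals, each made to overlap the start of a mesenchyme interval, and it found these overlaps. No test between groups was possible with 1 library each, so all results are counts, shares with Wilson 95% intervals and deposited values. The named genes are the 6 members and, in each pathway list, the 3 with the highest peak value. Members and lists were chosen with earlier results of these data known. Alternatives were stricter peak values, other windows and overlaps, equal interval numbers, and removal of intervals on input. Python 3.11.15, pandas 2.3.3 and scipy 1.17.1 were used.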

Additional observations from a re-analysis of the deposited data

How the results depend on the processing

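The epithelium count of 1 receptor gene was the same among intervals at or above the library's median peak value, within 5 kb of a start, and without intervals on input. Acvr2a lies exactly at that median. In mesenchyme the count of 4 was 3 among intervals at or above the median, where Bmpr2 was lost, and 4 without intervals on input. It was 2 within 5 kb of a start (Acvr2a and Bmpr1a) and 2 among as many of the highest intervals as epithelium had (Acvr1 and Bmpr1a). As no receptor interval lay on input, removing intervals on input could not change the count in either tissue. The shared Acvr2a interval was found under each overlap rule run. With a window of 1 kb around starts, 0 receptor genes were left in epithelium and 0 in mesenchyme, and with 10 kb there were 1 and 3. Shares over all protein-coding genes were taken at 5 kb alone, 2.02% in epithelium and 6.76% in mesenchyme. The counts at 1 and 10 kb therefore have no background beside them. The log2 ratio at Acvr2a, -0.64 in peak values, was -0.43 in average values and turned to 0.33 when the median over all pairs was subtracted, so its sign depends on the scaling of the libraries. The share of protein-coding genes with an interval was 5.09% in epithelium and 12.3% in mesenchyme at or above the median peak value. It was 8.57% in mesenchyme at equal interval numbers, close to the 8.92% of epithelium. Among genes of the members' lengths, an alternative chosen after seeing the data, it was 18.4% and 39.4%. No paired analysis was possible because each group has 1 library and no result comes from a test. Leaving out replicates was not possible for the same reason, and depth is unknown.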
